A study of Mus musculus with 8 samples.

Results

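CD8 T cells with transcripts of recent T cell receptor (TCR) signalling were examined in the pancreas of non-obese diabetic (NOD) mice. They were the CD8 cells with at least 1 unique molecular identifier (UMI, the tag that marks 1 captured transcript) of at least 2 of 6 genes, namely Egr2, Egr3, Nfkbid, Tnfrsf9, Nr4a1 and Nr4a3. A cell was counted as a CD8 T cell with at least 500 detected genes, under 10% mitochondrial UMIs, at least 2 UMIs over Cd3d, Cd3e, Cd3g, Trac, Trbc1 and Trbc2, a UMI of either Cd8a or Cd8b1, and no Cd4. Of 80470 barcodes, 77486 passed the first 2 filters, 24690 of them were CD8 cells, and 1833 of these, 7.424%, were triggered by this rule. They were set against the 17305 CD8 cells with none of the 6 genes, named negative cells here. The remaining 5552 CD8 cells had exactly 1 of the genes.

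The libraries came from T cells sorted as CD45+, CD3+ and TCRβ+ from the pancreas of NOD mice of 3 to 4 months (the treatment protocol allows up to 5), a strain that develops autoimmune diabetes. They were frozen, processed together and captured in droplets with 3′ counting. The active library came from diabetic mice with more than 600 mg/dl of blood glucose and the onset library from mice at 250 mg/dl, both harvested on day 1 and with no treatment named. The other 6 came from new-onset mice of 200 to 300 mg/dl labelled day 2, 3 and 4, with 1 vehicle and 1 PPCA library a day. The labels do not say whether these are days of harvest or of treatment. PPCA was given daily, with harvest a day after the last dose, and joins nutlin-3 at 50 mg/kg, which frees p53 from MDM2, with MK-1775 at 25 mg/kg, which inhibits the cell cycle kinase WEE1. Vehicle was ethanol, Tween 20 and PEG300. The number of mice per library is not stated, so p-values measure only the spread between libraries.

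A T cell that binds its antigen through the TCR starts transcription of immediate early genes within a short time, through calcium and NFAT, the MAPK cascade and NF-kB. Egr2 and Egr3 are zinc finger factors of the early growth response family, and Nr4a1 and Nr4a3 are orphan nuclear receptors that often serve as reporters of TCR signalling. Nfkbid encodes an atypical nuclear IkB protein, and Tnfrsf9 encodes the costimulatory receptor 4-1BB. In the NOD pancreas, CD8 T cells that recognise beta cell peptides take part in the destruction of the islets.

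The promoters of the genes that chose the cells are shown because the rule rests on transcripts that start there. RefSeq windows for GRCm38.p6 were at hand for 5 of the 6 genes, with 12 windows in all, each read over the 250 bases before the annotated start. All lie on the plus strand. Capitals mark matches, on either strand, to TGACG, the core of the cyclic AMP response element and to the CArG box bound by serum response factor. The windows shown lie at chr15:101266596-101266845 for Nr4a1, chr4:48045055-48045152 for Nr4a3 (the 98 exon-free bases of its window), chr10:67537619-67537868 for Egr2 and chr7:30422156-30422405 for Nfkbid.
Nr4a1: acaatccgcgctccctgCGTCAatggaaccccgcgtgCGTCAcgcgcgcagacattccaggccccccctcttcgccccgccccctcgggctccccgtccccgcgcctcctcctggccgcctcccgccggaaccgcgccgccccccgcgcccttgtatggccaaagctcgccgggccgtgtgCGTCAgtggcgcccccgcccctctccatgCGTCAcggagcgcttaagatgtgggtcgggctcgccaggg
Nr4a3: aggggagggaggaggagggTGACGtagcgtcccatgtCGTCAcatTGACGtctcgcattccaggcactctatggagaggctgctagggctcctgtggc
Egr2: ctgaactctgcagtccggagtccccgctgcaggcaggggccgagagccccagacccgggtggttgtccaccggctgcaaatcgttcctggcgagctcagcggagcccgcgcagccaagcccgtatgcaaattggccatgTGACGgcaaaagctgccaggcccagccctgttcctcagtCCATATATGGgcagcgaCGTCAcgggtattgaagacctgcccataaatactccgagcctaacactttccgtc
Nfkbid: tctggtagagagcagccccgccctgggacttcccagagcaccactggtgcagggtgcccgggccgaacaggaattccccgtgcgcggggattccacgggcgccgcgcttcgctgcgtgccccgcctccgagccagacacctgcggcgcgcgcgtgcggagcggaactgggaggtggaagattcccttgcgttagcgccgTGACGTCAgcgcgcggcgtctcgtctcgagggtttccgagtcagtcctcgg
The Nr4a1 window held 4 matches to TGACG, as did the whole Nr4a3 window, 3 of them in the bases printed. At least 4 such matches occurred in 0.137% of 32851 RefSeq windows of this length. The Egr2 window held 2 matches to TGACG and 1 CArG box, against shares of 3.9% of all windows with at least 2 of the former and 1.47% with the latter. The other 2 Nfkbid windows held no match, and of the other 4 Egr2 windows 1 held none, 1 held a CArG box alone and 2 overlap the one shown. In the Nfkbid window shown, 2 matches to TGACG overlapped on opposite strands, from 51 to 44 bases before the start. Neither of the 2 Tnfrsf9 windows held these letters. The search also covered TGANTCA, where N is any base. Its only match, TGAGTCA, lay in 1 Tnfrsf9 window, in the exonic part, from 15 to 9 bases before the start. At least 1 such match occurred in 6.75% of all windows. A match is a description of sequence and not a measured site.

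Member counts were 150 in the active and 170 in the onset library. Vehicle libraries had 106, 186 and 499 members on days 2, 3 and 4, and PPCA libraries had 102, 90 and 530. The day 4 libraries therefore held 1029 members, or 56.14%. Most members, 1336 or 72.89%, had exactly 2 of the 6 genes, while 329 had 3, 110 had 4, 48 had 5 and 10 had all 6. Members were deeper than negative cells in each library: their median was 8179 against 7159 UMIs in the active, 6555.5 against 5475.5 in the onset and 5357 against 4158 in the PPCA day 4 library. A deeper cell passes a rule on detected genes more easily, so shares below were taken after thinning each cell to 2000 UMIs, and levels are given as CPM, in which the UMIs of a gene, summed over the cells of 1 class in a library, are scaled to 1000000.

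Some libraries stood apart. Xist, made only from an inactive X chromosome, was at 463.4 CPM or more in CD8 cells of the active, onset, PPCA day 2 and vehicle day 4 libraries and at most 0.7296 CPM in the other 4, where the Y-linked genes summed to 179.6 CPM or more. These 4 go against the female label, and the day 2 and day 4 treatment pairs differ in it. Both day 4 libraries had high levels of immediate early and dissociation genes also in negative cells, with 7605.5 CPM under vehicle and 10622.3 CPM under PPCA for a list of 20 such genes, against 3382.3 to 6753.1 CPM in the other 6. Among members, 519 (28.3%) were among the highest-UMI barcodes that a doublet filter would remove (0.8% per 1000 barcodes), against 7.92% of negative cells, with 15.3% of members in the active and 40.2% in the PPCA day 2 library. Counted over all members, 37 carried a barcode that also occurs in another library.

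The genes of the rule were unevenly spread over the members, which is a description, since these values chose them. Nr4a1 was detected in 57.39% of members, Nfkbid in 50.9%, Nr4a3 in 50.08%, Egr3 in 38.19%, Egr2 in 28.42% and Tnfrsf9 in 15%. The make-up of day 4 differed: Nr4a1 was in 74.55% of vehicle and 69.62% of PPCA members, against 29.25% to 51.76% in the other 6 libraries. Egr3 ran the other way, in 34.07% of vehicle and 22.08% of PPCA members of day 4, in 31.76% of onset members and in 51.96% to 62% of the members of the other 5. Nr4a1 was also common in the CD8 cells of day 4 as a whole, at 30.29% under vehicle and 20.56% under PPCA, against 2.643% to 7.792% elsewhere. The part of the dissociation genes in this was not tested.

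**Figure D1:**
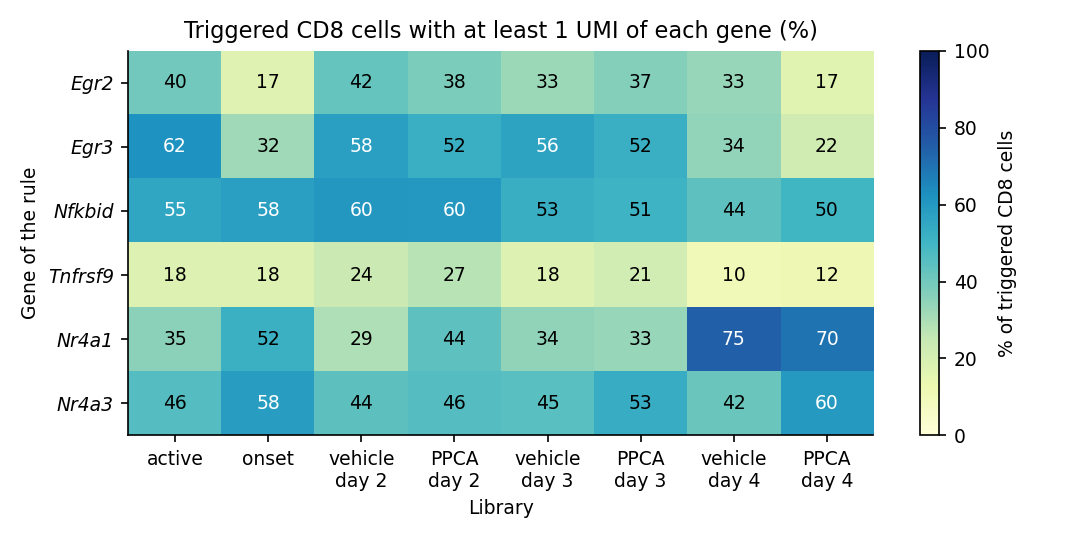
Percent of triggered CD8 cells with at least 1 UMI of each gene of the rule (rows) in each library (columns), as a colour scale from 0 to 100 with the value printed. Nr4a1 stands at 74.55% and 69.62% in the day 4 libraries, above the other 6.

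Pairs of genes showed the same split. Members with just Nr4a1 and Nr4a3 numbered 252, of which 212 came from day 4, where they were 20.6% of members against 4.975% in the other 6 libraries. Egr2 with Egr3 alone was seen in 86 members, 2.235% on day 4 and 7.836% elsewhere. Nfkbid with Nr4a3, the second most common pair, was found in 202 members and made up 8.455% and 14.3%.

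How common triggered cells were was compared at equal depth. At 2000 UMIs per cell, 1.318% of CD8 cells in the active library were triggered (38 of 2884 cells, exact Clopper-Pearson 95% interval 0.9341% to 1.804%) and 1.81% in the onset library (40 of 2210, 1.296% to 2.457%). Under vehicle the share was 1.942%, 1.307% and 4.247% on days 2, 3 and 4, and under PPCA it was 1.544%, 0.796% and 2.861%. Day 4 was the highest of each arm, and the active and onset intervals overlapped. These intervals cover counting error only. Unthinned, the active and onset shares were 5.178% and 7.613%, the vehicle shares 5.989%, 4.728% and 16.57%, and the PPCA shares 3.744%, 2.944% and 10.47%.

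The PPCA share was below vehicle on 3 of 3 days, with a mean of 1.733% ± 1.045 (SD, n = 3) against 2.499% ± 1.547 (SD, n = 3). The difference was -0.7652 percentage points (SD 0.5413), and the exact two-sided sign-flip test gave p = 0.25, the smallest that 3 pairs allow. It was -0.4544 points without the day 4 pair. With at least 3 of the 6 genes it was -0.1105 points, and 1 of 3 days had the higher share under PPCA.

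At 2000 UMIs, in each of the 8 libraries a smaller share of CD8 than of CD4 cells met the same rule (CD4 cells had a Cd4 UMI and none of Cd8a or Cd8b1). The means were 1.978% ± 1.098 (SD, n = 8) and 3.35% ± 1.662 (SD, n = 8), and the difference was -1.372 points (exact sign-flip p = 0.007812, the smallest that 8 pairs allow). Without pairing by library, the exact permutation test gave p = 0.07459, so the call rests on pairing. The gap was narrow in the vehicle library of day 3, at 1.307% against 1.581%, and wide in the PPCA library of day 4, at 2.861% against 5.91%. At 3000 UMIs the vehicle library of day 3 was the other way, at 1.787% against 1.691%, and the exact sign-flip p was 0.01562. As a background, 127 barcodes without the T cell signature included 26 (20.47%) with 2 of the genes, and 8 of 74 (10.81%) after thinning. What these barcodes hold, and the part of free RNA in either share, was not tested.

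**Figure D2:**
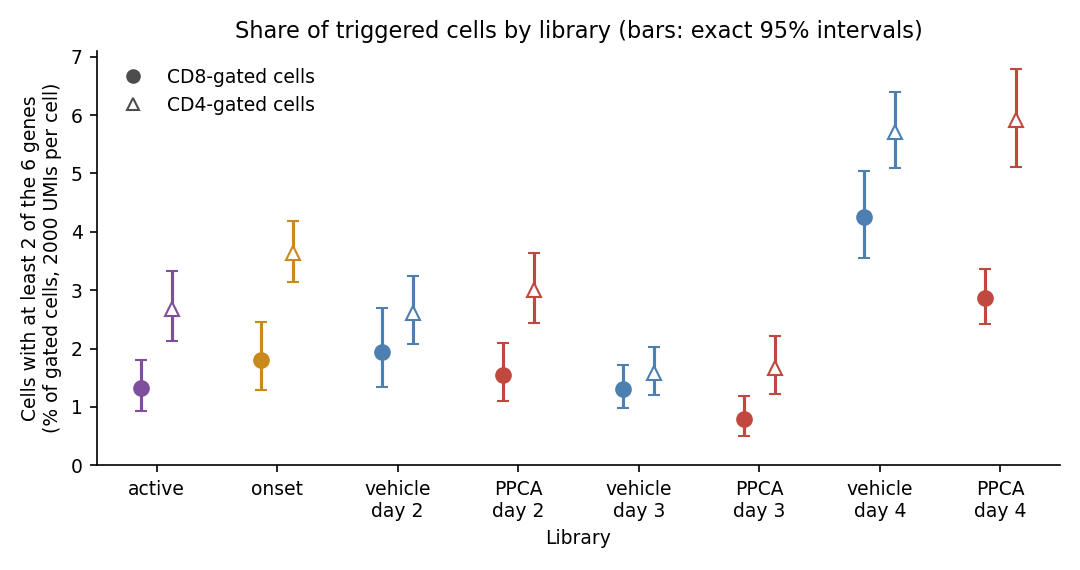
Percent of CD8-gated (filled circles) and CD4-gated (open triangles) cells with at least 2 of the 6 genes after thinning to 2000 UMIs, by library, with exact 95% intervals for counting error. The CD8 value lies below the CD4 value in each library, from 1.307% against 1.581% (vehicle, day 3) to 2.861% against 5.91% (PPCA, day 4).

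Ccl5 encodes a chemokine that marks memory and effector CD8 cells, and naive cells lack it. The share of triggered cells was 1.873% ± 1.311 (SD, n = 8) with a Ccl5 UMI and 1.999% ± 1.13 (SD, n = 8) without, a difference of -0.1268 points with 4 of 8 libraries on either side (exact sign-flip p = 0.7969). The SD of the difference was 1.287 points, and libraries differed in direction. In the active library the share was 0.4158% with Ccl5 and 1.498% without, and in the PPCA library of day 4 it was 4.373% with and 2.185% without. Leaving out the latter moved the mean difference to -0.4575 points. The mean difference turned positive without some single libraries and under other depths, up to 2.104 points with at least 1 of the 6 genes.

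The next question was which other transcripts differ between triggered and negative CD8 cells of the same library. Summed counts were fitted with edgeR's quasi-likelihood test with the library as block, with the 6 genes that define the classes kept out of the test. Of 11207 genes, 1853 (16.5%) were called at an adjusted p under 0.05, 1012 higher (9.03%) and 841 lower (7.5%), and the median log2 fold change over all genes was -0.03. Since members were deeper and chosen on their own transcripts, the fit was repeated with the rule read from a random share of each cell's UMIs and the levels from the rest (528 higher, 539 lower) and with negative cells matched by UMI decile (559 and 452). With every cell thinned to 2000 UMIs the balance turned, with 145 higher and 384 lower. Without the lineage-mixed and highest-UMI cells, 480 rose and 340 fell. Without day 4, the counts were 1083 and 833, and of the 1853 genes 1569 were called in the same direction.

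Of 15 transcription factors known to be induced by the TCR and not in the rule, 13 rose and 1 fell, with a median log2 fold change of 1.04 against -0.03 over all genes. This and the other gene lists were chosen with earlier results of these data known, so their counts are descriptions. The factors answer the same signal as the genes of the rule and are no separate support for it. Egr1, the founding member of the early growth response family, stood at 351.7 CPM in active members, 183.7 in onset members, 407.9, 222.9 and 361.4 in vehicle members of days 2, 3 and 4 and 352.8, 281.8 and 301.9 in PPCA members. In negative cells it was 41.35, 56.72, 89.96, 63.45, 143.5, 25.24, 61.53 and 160.1 CPM in the same order. Each member value lay above all 8 negative values, and the smallest ratios were on day 4, where negative cells were highest. The log2 fold change was 1.99 (SE 0.18, adjusted p = 3.498e-09), and 61.8% of members against 26.3% of negative cells had a UMI.

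Other factors of this list moved with Egr1. Irf4, which is dosed by TCR signal strength and drives the growth of activated cells, rose from a mean of 4.316 to 29.55 CPM (log2 fold change 2.58, SE 0.28, adjusted p = 1.408e-07). Irf8 rose by 2.46 on the log2 scale, and Ikzf2, which encodes Helios, by 1.64. A UMI of Irf4, Irf8 and Ikzf2 was found in 9.38%, 6.71% and 11% of members, against 1.9%, 2.06% and 4.57% of negative cells. For each in turn, 40 cells held 47.7%, 69.7% and 56.2% of the members' UMIs. Nr4a2, the family member that the rule left out, was at 13.3 to 114.9 CPM in members and 3.259 to 58.13 CPM in negative cells, higher in 8 of 8 pairs (1.52, adjusted p = 1.676e-05). Myc, the driver of metabolic growth, was at 82.42 to 190.3 against 48.77 to 80.6 CPM, so that the groups did not overlap (1.04, SE 0.10, adjusted p = 7.05e-09). Rel and Nfkb1, subunits of NF-kB, rose by 1.31 and 0.87.

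**Figure D3:**
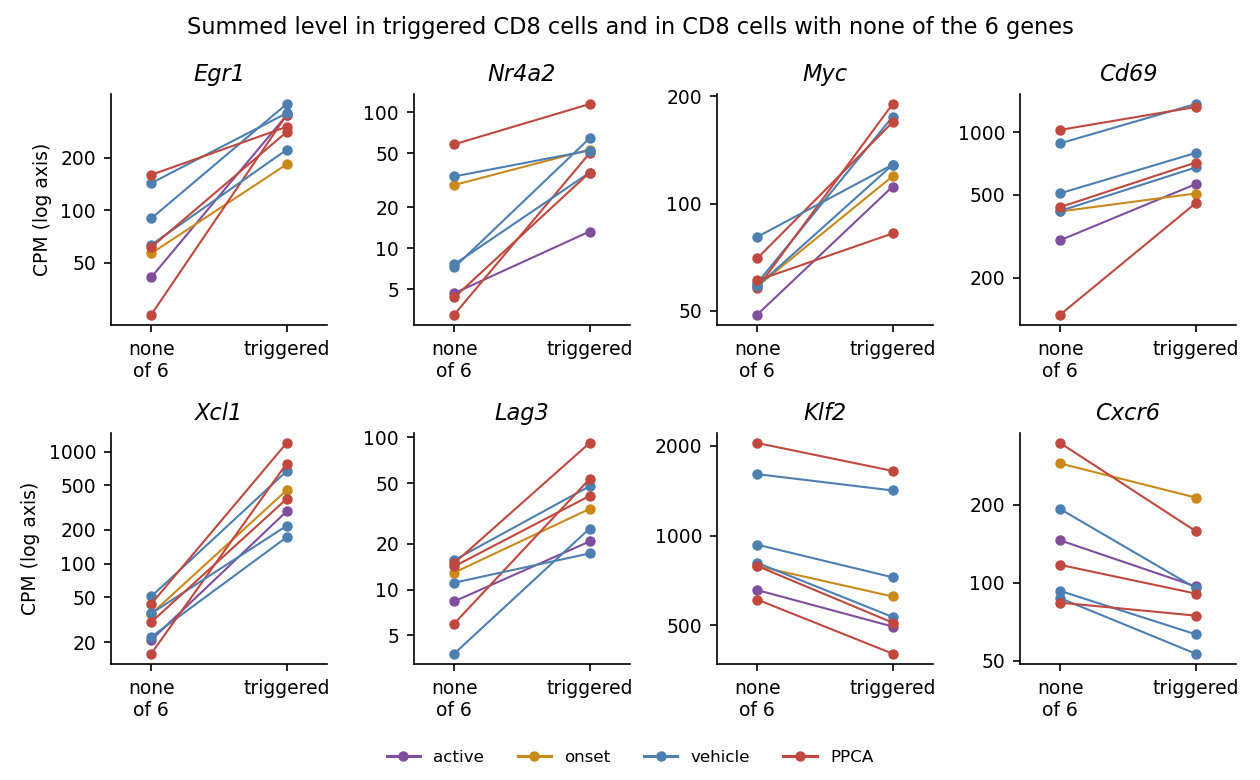
Level (CPM, log axis) of 8 genes in triggered CD8 cells and in CD8 cells with none of the 6 genes, with a line per library coloured by group. Egr1, Nr4a2, Myc, Cd69, Xcl1 and Lag3 are higher and Klf2 and Cxcr6 lower in the triggered cells of each of the 8 libraries.

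Receptors of the activated surface rose in 13 of 16 genes, with none lower and a median of 0.59. Cd69, which holds cells in tissue by opposing S1pr1, was at 455.6 to 1369.0 CPM in members against 132.5 to 1027.8 CPM in negative cells, higher in 8 of 8 pairs with overlapping ranges (0.68, adjusted p = 1.283e-06). At equal depth, a median of 60.33% of members and 48.33% of negative cells had a Cd69 UMI. Il2ra, the alpha chain of the interleukin 2 receptor, rose from 2.74 to 14 CPM. Cd83 (log2 fold change 4.15, adjusted p = 2.145e-10) and Tnfrsf4, encoding OX40 (2.51, adjusted p = 9.126e-08), were rare: 3.71% and 6.27% of members had a UMI, and 40 cells held 79.4% and 81.6% of the members' UMIs.

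Among 11 cytokine and chemokine genes tested, 8 rose and 1 fell. Xcl1, the chemokine that draws cross-presenting dendritic cells, was at 292.6 CPM in active members, 451.2 in onset members, 667.9, 171.9 and 217.7 in the vehicle libraries by day and 1190.5, 781.2 and 377.8 in the PPCA libraries, against 15.77 to 51.03 CPM in negative cells. The groups did not overlap (log2 fold change 3.81, SE 0.18, adjusted p = 8.822e-15). A small number of cells carried this: 281 members (15.3%) had a UMI against 7.43% of negative cells, and 40 cells held 76.5% of the members' UMIs. Ccl3 and Ccl4, inflammatory chemokines, both rose by 1.67, in 8 of 8 libraries. For Ccl4, 40 cells held 59.6% of the members' UMIs. At equal depth a median of 10.58% of members and 11.64% of negative cells had a Ccl4 UMI, with members higher in 5 of 8 libraries. Ifng rose by 0.71 (adjusted p = 0.004611, higher in 7 of 8 libraries), while at equal depth a median of 5.539% of members and 6.508% of negative cells had a UMI, with members higher in 5 of 8. The Ifng call was lost without the library block and in the Xist-positive libraries alone.

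Cytotoxic genes did not follow as a group, with 1 of 8 higher and 3 lower. Gzmb, the granule protease granzyme B, was the one that rose (1.76, adjusted p = 0.001151, 6 of 8 libraries), yet just 43 members had a UMI and 40 cells held 99% of them. Its call was lost by DESeq2 and in the Xist-positive libraries alone (adjusted p up to 0.1341). The 3 that fell were Ctsd, encoding the lysosomal protease cathepsin D (by 0.35, adjusted p = 7.206e-05, lower in 8 of 8), Nkg7 (by 0.18) and Gzmk (by 0.56). Ccl5, which is not on that list, fell by 0.49 (adjusted p = 0.0005951, lower in 7 of 8 libraries). Ctsd was called under each of the 25 alternatives, while the calls of Ccl5, Nkg7 and Gzmk were lost with negative cells matched by UMI decile and without the lineage-mixed and highest-UMI cells.

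Inhibitors of the signal were raised beside its targets. Of 10 genes for NF-kB feedback inhibitors, 8 rose and none fell (median 0.63). Nfkbia, encoding IkBα, was at 307.8 to 539 CPM in the members of the 6 libraries before day 4 and at 665.2 and 894.1 on day 4, while negative cells stood at 121.9 to 173.4 and at 476.7 and 527. Both classes were high on day 4, and within each library members were higher (1.23, SE 0.11, adjusted p = 2.131e-09). The 21 brakes of TCR and MAPK signalling were mixed, with 7 higher and 5 lower, led by Spry1 (2.31), Rgs16 and the MAPK phosphatase gene Dusp4 (1.19). Spry1 had a UMI in 5.02% of members, and 40 cells held 70.6% of the members' Spry1 UMIs. The Dusp4 call was lost after thinning, without the lineage-mixed and highest-UMI cells, without the block and in the Y-positive libraries alone, over a range of 0.55 to 2.19. Checkpoint receptors rose in 5 of 8 genes. Lag3, a receptor for MHC class II, was at 20.69 and 33.84 CPM in active and onset members, 47.71, 25.14 and 17.26 in vehicle members by day and 91.68, 53.23 and 41.21 in PPCA members, against 3.79 to 15.6 CPM in negative cells (1.75, adjusted p = 4.727e-08), again without overlap. A Lag3 UMI was found in 8.95% of members and 3.43% of negative cells, and 40 cells held 56.9% of the members' UMIs. Pdcd1, encoding PD-1, rose by 0.76 (adjusted p = 0.002939), a call lost without the lineage-mixed and highest-UMI cells, with the rule read from separate UMIs, without the library as block and in the Y-positive libraries alone (adjusted p up to 0.4753 by edgeR).

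Growth genes rose in 17 of 18 (median 0.48). Ncl, encoding the nucleolar protein nucleolin, was at 874.9 to 1712.8 CPM in members and 531.2 to 792.7 CPM in negative cells, without overlap (0.79, SE 0.07, adjusted p = 2.131e-09). The amino acid transporter gene Slc7a5 rose by 1.27 and the polyamine enzyme genes Odc1 and Srm by 1.00 and 0.81. After thinning to 2000 UMIs the calls of Slc7a5 (adjusted p = 0.05765) and Srm (0.26, adjusted p = 0.7662) were lost. Cell cycle genes showed 2 of 15 higher and 1 lower, and p53 targets 3 of 18 higher and 3 lower. Survival and death genes gave 5 higher and 2 lower of 12, with Bcl2a1b (1.32) and Bcl2l1 (1.06) raised.

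Genes of the quiescent state fell. Of 12 naive and resting genes 9 fell and none rose (median -0.21). Klf2, a factor that keeps T cells quiescent and recirculating, was at 401.5 to 724.3 CPM in members before day 4 and 1416.9 and 1648.1 on day 4, against 609.6 to 931.8 and 1607.1 and 2044.2 in negative cells. It was lower in members of 8 of 8 libraries (-0.45, SE 0.04, adjusted p = 6.204e-09). S1pr1, a target of Klf2 that lets T cells leave tissue, fell by 0.51, and Tcf7 fell by 0.15, a call lost under 5 of 25 alternatives, among them at least 3 CD8 UMIs and no lineage-mixed or highest-UMI cells. Residency genes also fell, in 3 of 6, among them Cxcr6 (-0.65, adjusted p = 1.898e-07, 8 of 8 libraries). Of 12 interferon response genes 6 fell, of which 1 was called with the rule read from separate UMIs and 2 with negative cells matched by depth. All 3 residency calls were lost with matched depth.

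**Figure D4:**
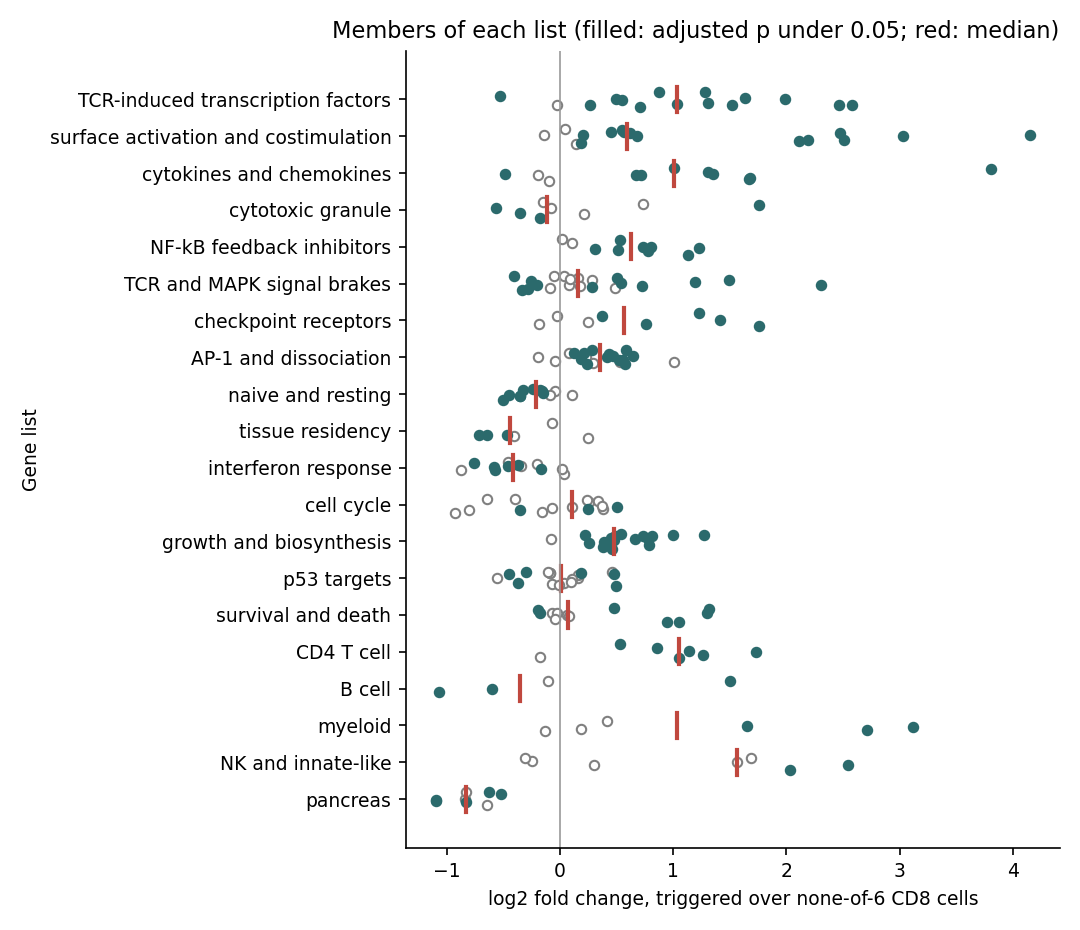
Log2 fold change of triggered over negative CD8 cells for each tested gene of 20 lists (filled points have an adjusted p under 0.05) with the median of each list as a red bar. TCR-induced factors have a median of 1.04 and growth genes of 0.48, and naive genes lie at -0.21.

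Outside the lists, the highest calls with the same sign in 8 libraries were the transcriptional regulators Id3 (2.20), Hivep3 (2.09) and Myb (1.99), followed by Gadd45b (1.73), Rilpl2 (1.47), Nab2 (1.21), Tagap (1.20) and Kdm6b (1.19). Id3 is a direct target of EGR factors in thymocytes, and Nab2 encodes a corepressor that binds them. Id3 was at 36.21 to 268.1 CPM in members and 18.31 to 47.29 CPM in negative cells, with both day 4 member values at the low end, inside the range of negative cells. The lowest were S100a4 (-0.82), Txnip (-0.63), a brake on glucose uptake, Xaf1, Actn2, Armc7, Trp53i13, Tsc22d3 (-0.59) and Pik3ip1, an inhibitor of PI3 kinase. The calls of S100a4, Actn2 and Trp53i13 were lost with matched depth, and those of Xaf1, Actn2, Armc7 and Trp53i13 after thinning.

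Transcripts of other lineages moved with the rule. Of 7 CD4 T cell markers 6 rose (median 1.05), and their sum was 247.6 to 427.8 CPM in members against 149.9 to 279.2 CPM in negative cells, higher in 8 of 8 libraries. Most of this sum came from Cd5 in both classes of each library. In the active library Cd5 had 287 UMIs in members and 2233 in negative cells, and Izumo1r had 48 and 270. Foxp3, the factor of regulatory T cells, was at 12.6 against 3.244 CPM on average, from 51 members. Izumo1r rose from 18.33 to 44.34 CPM. Both were still called with at least 3 UMIs of Cd8a and Cd8b1, while Cd8b1 itself was lower in members of 8 of 8 libraries (540 against 694.3 CPM). B cell markers summed to 104 to 281.8 against 112 to 266.3 CPM, and Ms4a1 was at 0 in the members of 7 libraries. Myeloid markers summed to 96.6 to 148.1 against 111.7 to 168.5 CPM, and Csf1r was at 0 in all members. Most of the B cell sum was Ighm and most of the myeloid sum Cst3, so the sums say little of the rarer markers. In the active library Ighm and Cst3 had 307 and 154 UMIs in members and 2940 and 1739 in negative cells. Of 6 myeloid markers tested 3 rose, among them C1qb and C1qa, which had UMIs in 3 and 6 members, and of 4 B cell markers Cd74 rose and 2 fell. The Cd74 call was kept under 17 of 25 alternatives, and was lost by DESeq2, after thinning and without day 4, among others. Of the NK and innate-like markers 2 of 7 rose, with sums of 16.43 to 50.76 against 17.14 to 64.74 CPM. Pancreas transcripts were lower in members of 7 of 8 libraries, and 5 of 8 tested were called lower. With matched depth 5 of the list were tested and none was called. The part of these transcripts in the comparison was not tested. With lineage-mixed and highest-UMI cells left out, 13 of the 15 factors, 16 of the 18 growth genes and 5 of the 7 CD4 markers were still called higher, and 5 naive genes lower.

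Immediate early and dissociation genes rose in 13 of 20 and fell in none (median 0.35). They summed to 5094.0 to 7978.7 CPM in members outside day 4 and to 9480.9 and 12535.5 CPM on day 4. Fos rose by 0.41 and Fosb by 0.64, and Hspa1a, a heat shock gene, did not pass (0.23, adjusted p = 0.51). Without the library block none of the 20 was called. The Fos call was also lost by DESeq2 and in the Y-positive libraries alone.

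Levels of several groups followed the number of genes detected, a description along the axis of the rule. TCR-induced factors summed to a median of 888.7 CPM over libraries in cells with 1 gene, just outside the rule, 1198.4 CPM in cells with 2, just inside it, and 2185.4 CPM with 3 or more, with 8 of 8 libraries higher at both steps. Egr1 went from 106.5 to 207.5 and 489.9 CPM and Xcl1 from 44.38 to 153.8 and 907.2 CPM. Growth genes went from 4756.1 to 5448.3 and 7634.9 CPM, while naive genes fell from 4580.1 to 4380.9 and 3282.8 CPM. By these medians the 1336 members with 2 genes lay closer to the cells with 1 gene than to the members with more. This did not hold for every group. For Ccl5, Gzmb and the tissue residency, cell cycle and NK lists they lay closer to the members with more, and cytokines and chemokines summed to 2396.8, 1662.8 and 3647.5 CPM, with no order by gene number.

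**Figure D5:**
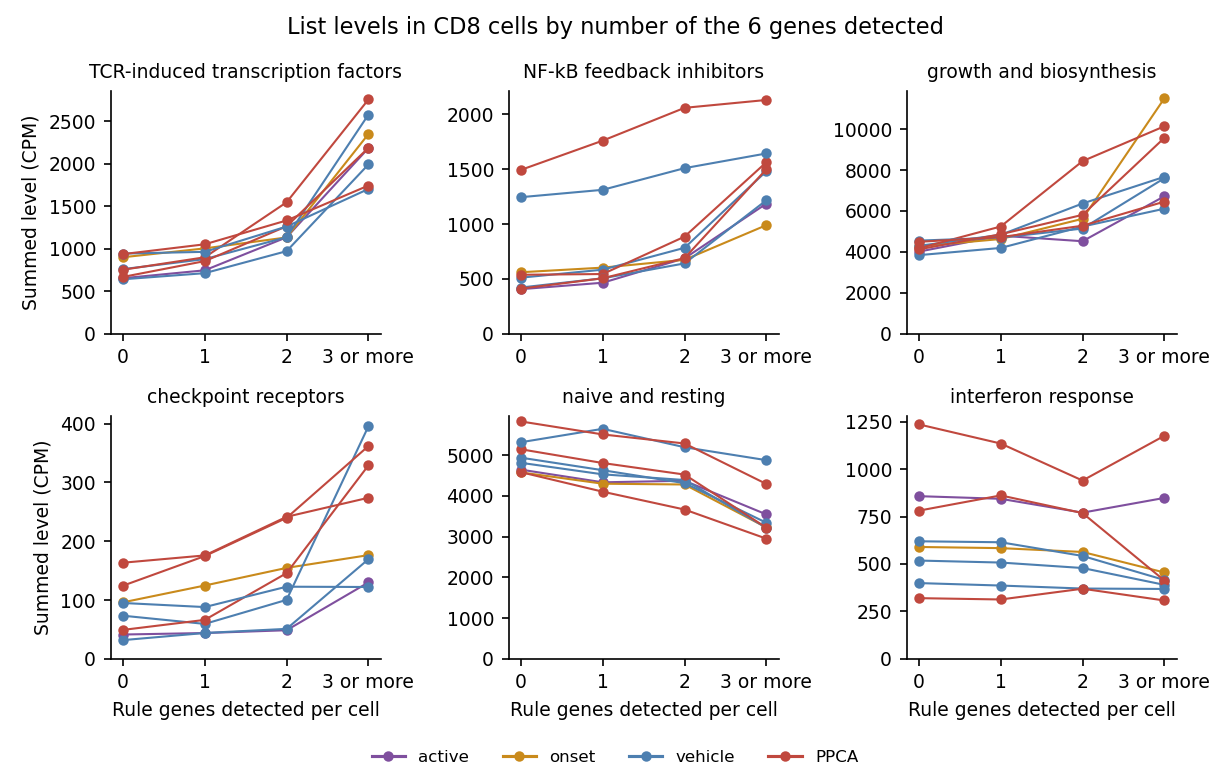
Summed level (CPM) of 6 gene lists in CD8 cells by the number of the 6 genes detected, with a line per library coloured by group. TCR-induced factors climb from a median of 888.7 CPM with 1 gene to 2185.4 CPM with 3 or more, and naive genes fall from 4580.1 to 3282.8 CPM.

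Members also differed among themselves by which genes they carried, in a split chosen after the values were seen and given with no test. The 969 members with Egr2 or Egr3 had a median of 439.6 CPM of Egr1 over libraries, against 103 CPM in the 864 with neither, higher in 8 of 8 libraries. Myc was at 155.7 against 84.07 CPM and Cd69 at 799.1 against 438.1 CPM, each higher in 8 libraries. Growth genes ran the other way, at 5734.1 against 6745.8 CPM, higher in just 2 of 8. Il2ra was likewise higher in 1 of 8, at 7.119 against 17.48 CPM.

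The authors' deposited table of cluster markers lists 5 of the genes of the rule for its cluster CD4 Th0, among them Egr3 with a log2 fold change of 1.274 and Nr4a1 with 1.194. In the authors' deposited table Tnfrsf9 is listed for CD4 Treg at 0.6551, and none of the 6 appears for a CD8 cluster. For CD8 TRM TEM the authors' deposited table lists Ccl4 (3.816), Ifng (2.411), Xcl1 (1.363) and Nr4a2 (1.112).

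PPCA was compared with vehicle within the triggered cells by edgeR's quasi-likelihood test with the labelled day as block. Of 7992 genes 17 (0.213%) were called, 9 of them higher (0.113%) and 8 lower (0.1%). At an unadjusted p under 0.05 there were 499. Without the day block none was called, and with Xist status as a factor 121 were, in a fit with 1 residual degree of freedom. The day 2 and day 4 pairs differ in Xist status. Without the day 3 pair the count was 32 and without the day 4 pair 101. Of the lists, checkpoint receptors had 2 of 5 tested genes higher, cytokines 2 of 9 and the interferon response 2 of 9, and the 15 TCR-induced factors had none (median 0.14, against 0.01 over all genes).

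Ifit1, an interferon-induced gene, was at 45.84, 34.44 and 17.8 CPM in PPCA members on days 2, 3 and 4, while vehicle members had 4.771, 4.756 and 3.898 CPM. The arms did not overlap (log2 fold change 2.54, SE 0.34, adjusted p = 0.003438). These levels rest on few UMIs, 33, 22 and 57 in PPCA members and 4, 7 and 14 in vehicle members. Over all libraries, 95 members had an Ifit1 UMI. Negative cells had 85.95, 41.94 and 9.89 CPM under PPCA and 16.1, 9.398 and 7.271 CPM under vehicle, higher on the same 3 days.

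Maf, a factor of cytokine production, stood at 79.18, 17.22 and 25.91 CPM in PPCA members and at 7.156, 2.718 and 6.126 CPM in vehicle members (2.51, adjusted p = 0.00341). Over all 8 libraries, 88 members had a Maf UMI, and 40 cells held 75.6% of the members' UMIs. Vehicle members had 6, 4 and 22 Maf UMIs by day. Lag3 (1.03, adjusted p = 0.03922), Ctla4 (1.04, adjusted p = 0.03922) and Ccl3 (1.11, adjusted p = 0.03069) were higher under PPCA on 3 of 3 days. So was Xcl1 (1.15, adjusted p = 0.01713), but it turned to -0.35 without the lineage-mixed and highest-UMI cells, and in the PPCA library of day 2 a single cell held 501 of its 857 UMIs. Over all libraries, 8.95% of members had a UMI of Lag3, 20.9% of Ctla4 and 8.4% of Ccl3. For these genes 40 cells held 56.9%, 31.8% and 71.8% of the members' UMIs. Without all lineage-mixed and highest-UMI cells no gene was called higher under PPCA, and Ifit1, Maf, Lag3, Ctla4 and Ccl3 kept their direction but not the call. Nor was any called higher after thinning, where just 1246 genes could be tested.

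The genes that fell code for ribosomal proteins or are mitochondrial. Rps15 was at 1297.4, 2075.8 and 1191.3 CPM under PPCA on days 2, 3 and 4, and at 2239.8, 3627.7 and 2306.3 CPM under vehicle (-0.94, SE 0.11, adjusted p = 0.002414). PPCA was lower on each day, and the arms did not overlap. Negative cells showed like values, 1158.5, 2058.1 and 1117.6 against 2077.9, 3576.9 and 2077.1 CPM. Among the others were mt-Co3 (-0.90), Rpl13a (-0.83), Rpl5 (-0.81), Rpl23a (-0.69), mt-Atp6 (-0.63) and Rpl12 (-0.62). Over all 84 ribosomal protein genes tested, 68 were negative and 6 called, with a median of -0.13.

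No p53 target and no cell cycle gene passed the test between arms. Mdm2, a p53 target that rises when p53 is freed, was at a mean of 44.52 CPM under PPCA and 39.02 CPM under vehicle (0.10, SE 0.19, adjusted p = 0.9963). Of the 13 p53 targets and 8 cell cycle genes tested none was called (median 0.08 and -0.13). The p53 target Cdkn1a and the proliferation gene Mki67 were too low to be tested, at 0 to 9.054 and 0 to 5.556 CPM in the 6 libraries. Bcl2l11, encoding the death protein BIM, was at 75.47 against 54.68 CPM (0.30, adjusted p = 0.9702), and Ifng, Gzmb and Pdcd1 had adjusted p-values of 0.8323, 0.9909 and 0.7113. These 3 depended on the days used. Without the day 3 pair Ifng (1.83, adjusted p = 7.788e-05) and Gzmb (2.88, adjusted p = 0.0001253) were called higher by edgeR, and without the day 4 pair both were negative and Pdcd1 was called higher.

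Whether PPCA acted differently on triggered and negative cells was tested as an interaction. Of 11061 genes edgeR called 0 (0%) and had 291 at an unadjusted p under 0.05, while DESeq2 called 1 and limma-voom 0. Ikzf2, named here after its values were seen, had the smallest p, with an interaction of 1.41 (SE 0.24, adjusted p = 0.05868) and a higher value on 3 of 3 days. It was at 144.5, 109.6 and 53.39 CPM in PPCA members and 36.97, 22.42 and 43.16 CPM in vehicle members, against 35.48, 13.93 and 11.93 and 17.34, 14.33 and 22.06 CPM in negative cells. Summed over members, the level was high under PPCA on days 2 and 3, and on day 4 the arms were close. On days 2 and 3 members held 104 and 70 Ikzf2 UMIs under PPCA, and 31 and 33 under vehicle. Over all libraries, 11% of members had an Ikzf2 UMI, and 40 cells held 56.2% of the members' UMIs. The Xcl1 interaction was 1.52 (adjusted p = 0.4045).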

How the data were processed

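T cells of 8 NOD pancreas libraries were analysed. The deposited matrices hold raw UMI counts over 32285 features, 419420275 UMIs in all and 36934580 to 67603740 per library. Per the file headers they were made with cellranger 6.0.0, whereas the submitters' processing notes name Cell Ranger 6.1.2 and Seurat. The genome build is not given in the sources at hand. The authors' deposited marker table holds log2 fold changes by cluster. Its deposited p-values were not used.

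The members and gene lists were chosen with earlier results of these data known. Counts were summed per library and class and tested by quasi-likelihood in edgeR 4.0.16 (R 4.3.3, TMM, filterByExpr), with Benjamini-Hochberg adjustment at 0.05. Shares were tested by exact sign-flip tests over libraries. The method was tested on simulated data. No doublet caller was run, and high-UMI cells were left out as an alternative. Alternatives used DESeq2 1.42.0 and limma 3.58.1.

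Days pair vehicle and PPCA libraries by the labels, and the correlations of same-day deviations were 0.179, 0.147 and 0.4. Named genes were the 4 largest called changes of each list, fixed genes in any case, and beyond the lists the 8 highest and 8 lowest calls with 1 sign in all libraries and at least 20 CPM. Il2ra, Rel, Nfkb1, Cd8b1, Ikzf2 under PPCA, mt-Atp6 and Rpl12 were named outside this rule, after their values were seen. The reading at 3 CD8 UMIs was added after seeing the data.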

Additional observations from a re-analysis of the deposited data

How the results depend on the processing

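Of 98 named genes called between triggered and negative cells, 36 stayed called in the same direction under every one of the 25 alternatives that tested them, among them Egr1, Irf4, Irf8, Xcl1, Lag3, Myc, Id3, Cd83, Ncl, Foxp3 and Izumo1r. Calls were lost by 51 of them without the library as block, 25 after thinning, 22 without lineage-mixed and high-UMI cells, 15 with the rule read from separate UMIs, 14 with matched depth, 4 without day 4 and 3 with at least 3 CD8 UMIs. In the fit of triggered against negative cells, 523 genes in place of 1853 were called with no replicate block (400 higher, 123 lower), 529 after thinning to 2000 UMIs (145 higher, 384 lower, with the median of all genes moved from -0.03 to -0.15), 820 without lineage-mixed and high-UMI cells, 1067 with the rule on separate UMIs, 1011 with matched depth, 840 in the Xist-positive and 718 in the Y-positive libraries alone. Leaving out each library gave 1507 to 1904. Smaller sums and fewer libraries enter most of these, and the causes were not tested otherwise.

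Signs turned for 8 of 2424 gene values in that comparison. These were Ctrb1 (0.2141) and Prss2 (0.6837) with matched depth, Fcer1g (-0.9796) with the rule on separate UMIs, Hspa1a with no replicate block (-0.1781), after thinning (-0.6317) and without the onset library (-0.1228; 0.4572 without PPCA day 2), and Ifit1 (0.4776) and Igkc (0.2581) after thinning. As fitted, Ctrb1 was -0.84, Prss2 -0.62, Fcer1g 1.65, Hspa1a 0.23, Ifit1 -0.58 and Igkc -1.07.

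For PPCA against vehicle, 30 genes were called by limma-voom, 93 without a low-count filter, 0 with no replicate block, 1 with at least 3 of the 6 genes (0 higher), 5 after thinning (0 higher), 5 without lineage-mixed and high-UMI cells (0 higher), 121 with Xist status as a factor and 16 to 101 without each day pair. DESeq2 called 2 higher and 14 lower. Gzmb turned to -0.04606 with no replicate block, -0.3887 with at least 3 of the 6 genes and -0.4183 without the day 4 pair (2.882 without day 3), Ifng to -0.2822 without that pair (1.827 without day 3), and Xcl1 to -0.3538 without lineage-mixed and high-UMI cells.

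The interaction called 0 genes in the design used, 1 with DESeq2 size factors, 1 by DESeq2, 9 without a low-count filter, 4 with at least 3 of the 6 genes, 1 after thinning, 3 without lineage-mixed and high-UMI cells, 2 with at least 3 CD8 UMIs, 3 with Xist status as a factor and 3 to 14 without each day pair. No interaction of 8 fixed genes passed as fitted, and their signs turned in 26 of 103 values. Gzmb passed under 2 alternatives, without lineage-mixed and high-UMI cells (adjusted p = 0.03963) and without day 3 (adjusted p = 0.01406). Bcl2l11 was -0.2178 after thinning, -0.01858 without lineage-mixed and high-UMI cells and -0.2457 to 0.3611 without each day pair. Cdkn1a was -0.04746 by limma-voom, -0.1454 with at least 3 of the 6 genes, -0.001749 after thinning and -0.1173 to 0.2094 without each pair. Gzmb was 1.035 by DESeq2, 2.854 without lineage-mixed and high-UMI cells, -1.467 to 2.895 without each pair and 0.02957 with Xist status. Ifit3 was -0.2727 with at least 3 genes and -0.3944 after thinning. Ifng was -0.8704 with at least 3 genes, -0.01627 after thinning, -0.117 without day 2, -0.6185 to 0.928 without each pair, and -0.1373 with Xist status. Mdm2 was 0.01472 with no replicate block, 0.3139 with at least 3 genes, 0.461 after thinning, 0.062 without lineage-mixed and high-UMI cells and -0.08293 to 0.04789 without each pair. Mki67 was -0.05099 with at least 3 genes, and Pdcd1 was 0.2296 with no replicate block and -0.9408 to 0.4182 without each pair.

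The share under PPCA minus vehicle was -0.9488 to -0.4544 points without each day pair, and with no replicate block its exact permutation p was 0.6. CD8 minus CD4 was -1.529 to -1.132 points without each library, and with no replicate block the same -1.372 points had an exact permutation p of 0.07459. The Ccl5 difference was -0.4575 to 0.07569 points without each library, positive without active (0.009674), PPCA day 2 (0.03918) and vehicle day 4 (0.07569). It was 0.3308 points with no thinning, 0.1765 at 3000 UMIs, 2.104 with at least 1 of the 6 genes and 0.0858 with at least 3 CD8 UMIs.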
